A study of Mus musculus with 7 samples.

Results

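The renin-angiotensin genes were described in the myocardium of mice 4 days after myocardial infarction (MI). The 9 members were chosen by name: the precursor gene Agt, the enzyme genes Ren1, Ace, Enpep and Mme, and the receptor genes Agtr1a, Agtr1b, Agtr2 and Mas1. All 9 were among the 56980 genes of the expression table. RNA was sequenced from 7 male wild-type mice of the inbred strain C57BL/6J, which were 8 weeks old when obtained. In 3 of them the left coronary artery had been ligated (MI mice), and the other 4 were operated on in the same way without ligation (sham mice). Each mouse gave 1 library, so p-values measure the spread between these mice. The labels name the tissue as myocardial and do not say which region of the heart was taken. Both groups had been through surgery, and no mouse without an operation was included.

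The renin-angiotensin system makes and removes angiotensin peptides. Renin cuts angiotensinogen to angiotensin I, and angiotensin-converting enzyme (ACE) trims this to angiotensin II, which raises blood pressure and drives growth and fibrosis in the heart through the type 1 receptor. Other peptidases turn the same peptides into angiotensin III or angiotensin 1-7, and the latter acts through the Mas receptor. In the circulation, angiotensinogen comes mainly from the liver and renin from the kidney, while ACE sits on the surface of endothelial cells.

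Values were FPKM, the fragments counted on a gene relative to its length and to the size of the library, and differences were taken on the log2(FPKM + 1) scale, which understates the change of genes at low levels. Depths were 19977713 to 23610870 fragments. Over the 11431 genes that passed a filter on low values, MI replicate 2 stood nearer the sham mice than the other MI mice did. Its root-mean-square log2 difference from the sham mean was 0.230, against 0.851 in MI replicate 1 and 0.756 in MI replicate 3, while the sham mice were at 0.169 to 0.192 from their own mean. Mitochondrial genes held 28.2% of its fragments, against 13.6% and 14.9% in MI replicates 1 and 3 and 26.5% to 27.4% in the sham mice. The heart muscle markers (6 genes) summed to 10573 to 11593 FPKM in the sham mice and to 7655, 10698 and 7926 FPKM in MI replicates 1 to 3, and the 6 fibroblast markers to 109 to 129 FPKM and to 1997, 202 and 1503 FPKM. Members are therefore given with and without MI replicate 2, and since that mouse was set aside for its likeness to the sham mice across all genes, p-values without it describe a chosen set of mice. The median gene was 0.21 higher in MI on the log2 scale with all 7 mice and 0.33 higher without MI replicate 2, and the changes of the members that passed the filter are also given relative to it. In the fits without a filter, the median gene was 0.062 higher with all mice and 0.097 higher without MI replicate 2.

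Of the 9 members, 4 passed the filter (Agt, Ace, Agtr1a and Enpep). With all 7 mice, 0 of these 4 passed limma at a Benjamini-Hochberg adjusted p under 0.05, against 0.0262% of all genes tested (0.0175% higher and 0.00875% lower), and 1 of 4 (Ace) had an unadjusted p under 0.05, against 39.3% of all genes. Ace was also past a second criterion, an unadjusted p under 0.05 with a log2 difference over 0.5, which 17.8% of genes passed on the higher side. Without MI replicate 2, 3 of the 4 passed the adjusted test, Ace and Enpep higher and Agtr1a lower, against 71.7% of all genes (57% higher and 14.7% lower). The same 3 were then past the second criterion, which 35% of genes passed on the higher and 8.42% on the lower side, and were outside the range of the sham mice in both remaining MI mice, as were 78.8% of genes (61.9% above and 16.9% below). The share of members is near that background, so the count says nothing particular about them. The plot of members by mouse shows the 6 genes that had fragments in every mouse.

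**Figure D1:**
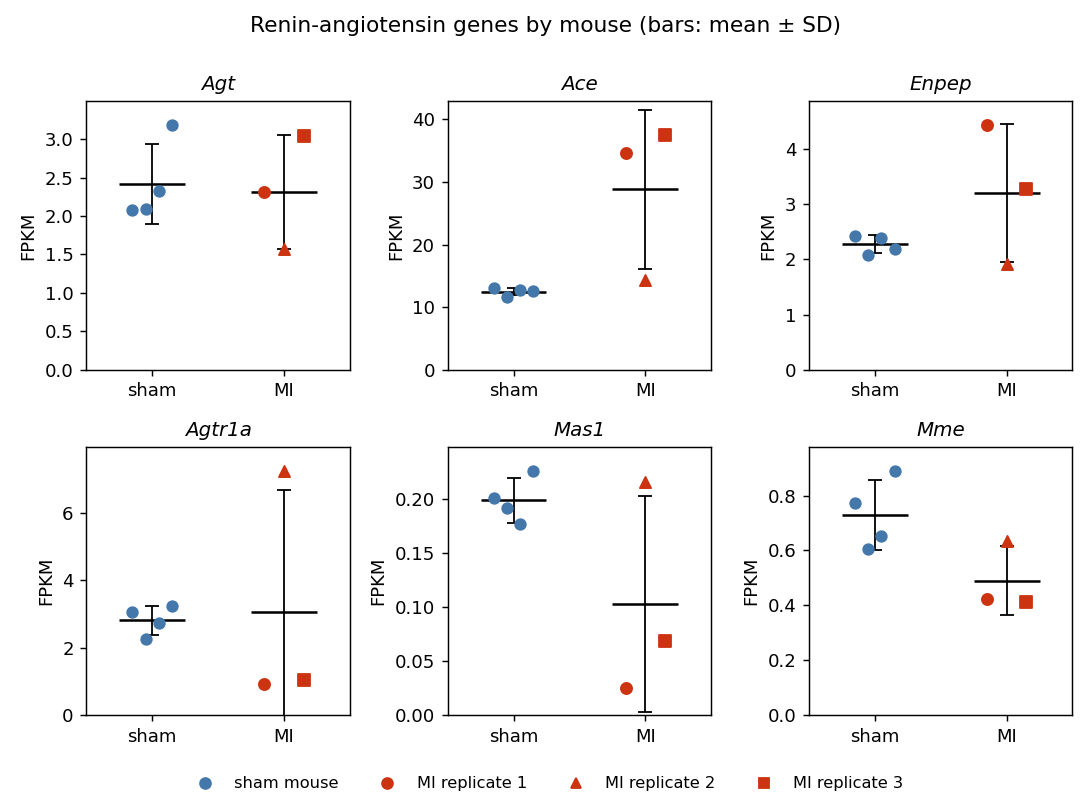
FPKM (y axis, from 0) of Agt, Ace, Enpep, Agtr1a, Mas1 and Mme in each sham mouse (blue) and MI mouse (red, 1 symbol per replicate), with the mean and SD of each group. The lower arm of the MI bar for Agtr1a would pass below 0 and ends at the axis. For Ace all MI points lie above the sham mice, at 34.5, 14.3 and 37.5 FPKM, while Agtr1a in MI replicate 2 reached 7.24 FPKM with the other MI mice below every sham mouse.

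In the sham mice, Ace had the highest level of the 9 members at 12.5 FPKM (11.7 to 13.0). Agtr1a followed at 2.82 FPKM (2.25 to 3.24), Agt at 2.42 FPKM (2.07 to 3.18) and Enpep at 2.27 FPKM (2.08 to 2.43), and the ranges of these 3 genes overlapped, so their order was not resolved. Mme at 0.730 FPKM (0.604 to 0.889) and Mas1 at 0.199 FPKM (0.177 to 0.226) came next, each apart from its neighbours. Ren1, Agtr1b and Agtr2 had no fragment in any sham mouse. The order also rests on the gene lengths behind the FPKM values. For Ace the values implied 6779 bases, against 5287 bases of exon in the annotation used here, and for Mas1 5531 against 2620 bases, whereas for Agt both were 1891 bases.

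Agt (chr8:124556534-124569706, minus strand, GRCm38) encodes angiotensinogen, the only known precursor of the angiotensins. Its level was 2.07, 2.10, 2.32 and 3.18 FPKM in sham replicates 1 to 4, and 2.31, 1.57 and 3.05 FPKM in MI replicates 1 to 3. These values rested on 86 to 120 fragments in the sham mice and on 95, 67 and 136 fragments in the MI mice. The groups overlapped, with the lowest mouse of all 7 in the MI group and the highest in the sham group. The means were 2.42 ± 0.518 FPKM (SD, n = 4) and 2.31 ± 0.740 FPKM (SD, n = 3). The log2 difference was -0.061 (SE 0.18, 95% interval -0.49 to 0.36, limma adjusted p = 0.800), and -0.27 relative to the median gene. With MI replicate 2 left out it was 0.11 (adjusted p = 0.523), and -0.22 relative to the median gene. The direction of Agt thus depended on which mice and which scaling were used, and neither fit above found a difference larger than the spread between mice. A fit with sample weights, which rested almost wholly on MI replicate 3 within the MI group, put Agt 0.27 higher (limma adjusted p = 0.00459).

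Sham replicate 4, the sham mouse with the highest Agt, also had the highest summed level of the liver markers (Alb, Apoa1 and Apoa2), at 5.04 FPKM against 0.388 to 0.947 FPKM in the other sham mice. Albumin alone was 3.48 FPKM there. Those 3 genes summed to 3.49, 0.896 and 0.959 FPKM in MI replicates 1 to 3, so MI replicate 3, with the highest Agt of its group, was not high in them. The 4 adipocyte markers (Adipoq, Plin1, Lep and Ucp1) were at 0.0343 to 0.188 FPKM in the sham mice, and reached 9.39 FPKM in MI replicate 1 and 31.7 FPKM in MI replicate 3, with 0 in MI replicate 2. The order of the 3 MI mice in Agt was the order of their adipocyte markers. The sham mice did not show that order. Their adipocyte markers were highest in sham replicate 2, where Agt was 2.10 FPKM, and only 0.0470 FPKM in sham replicate 4. Among sham replicates 1 to 3, the liver markers were lowest in sham replicate 3 (0.388 FPKM), where Agt was highest. The part of either tissue in the Agt values was not tested.

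**Figure D2:**
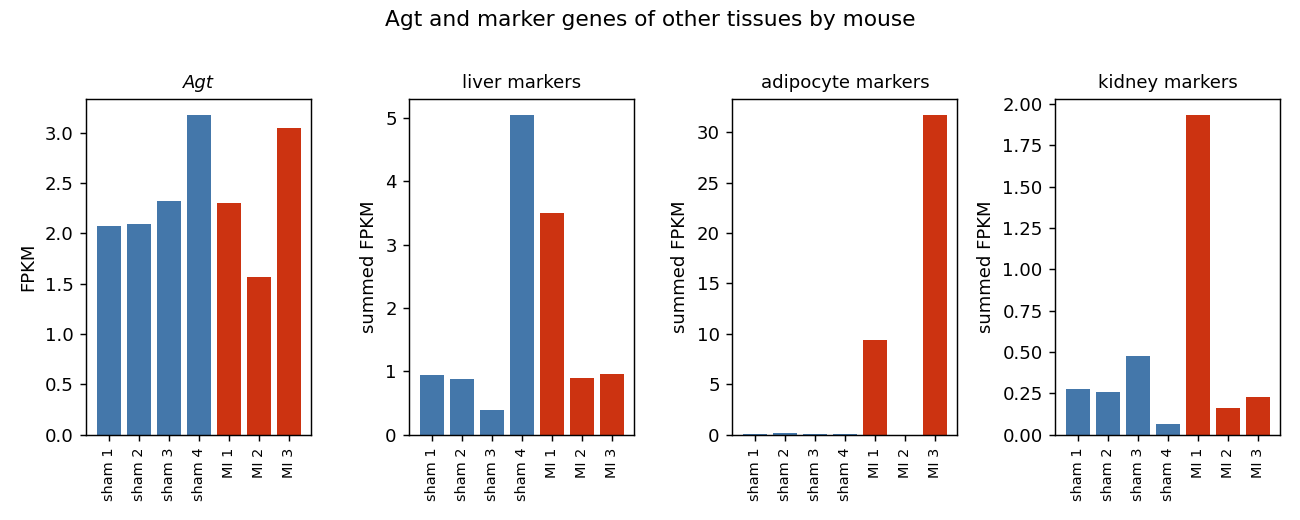
Agt (FPKM) and the summed FPKM of liver markers (Alb, Apoa1, Apoa2), adipocyte markers (Adipoq, Plin1, Lep, Ucp1) and kidney markers (Umod, Slc34a1) in each mouse, with 1 bar per mouse and each axis starting at 0 (blue, sham; red, MI). Liver markers were highest in sham replicate 4 (5.04 FPKM), adipocyte markers in MI replicate 3 (31.7 FPKM) and kidney markers in MI replicate 1 (1.93 FPKM).

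Ren1 (chr1:133350510-133360325, plus strand) encodes renin, the protease that starts the cascade, and is the renin gene carried by C57BL/6 mice. It had 0 fragments in each of the 4 sham mice, and 1, 2 and 1 fragments (0.0254, 0.0489 and 0.0234 FPKM) in MI replicates 1 to 3. All MI mice were above all sham mice, but every value lay under the 0.0778 FPKM that 3 fragments would give in a sham mouse. A count of 0 allows that level, so a difference in Ren1 was not detectable at this depth, and no fold is given. In the exact two-sided permutation test over the 35 splits of 7 mice p was 0.0571, the smallest that 3 against 4 mice allow. The kidney markers Umod and Slc34a1 summed to 1.93, 0.163 and 0.225 FPKM in MI replicates 1 to 3 and to 0.0649 to 0.474 FPKM in the sham mice. Their part in the few renin fragments was not tested. Without MI replicate 2 and without a filter, Ren1 was 0.035 higher on the log2 scale (limma adjusted p = 0.0616).

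Ace (chr11:105967945-105989964, plus strand) encodes angiotensin-converting enzyme, which makes angiotensin II and also breaks down bradykinin. It was 13.0, 11.7, 12.8 and 12.6 FPKM in sham replicates 1 to 4, and 34.5, 14.3 and 37.5 FPKM in MI replicates 1 to 3. The groups did not overlap, and MI replicate 2 lay just above the highest sham mouse while the other MI mice were far above it. Fragment numbers were 1706 to 2030 in the sham mice and 5100, 2198 and 6006 in the MI mice, so counting error was small beside the spread of the MI group. The group means were 12.5 ± 0.593 FPKM (SD, n = 4) and 28.8 ± 12.6 FPKM (SD, n = 3), a ratio of 2.30, which was 2.88 for MI replicates 1 and 3 and 1.15 for MI replicate 2 alone. The log2 difference was 1.03 (SE 0.30, 95% interval 0.32 to 1.75) and 0.82 above the median gene, with an unadjusted p of 0.0109 and a limma adjusted p of 0.108. Groups that did not overlap were found for 25.1% of all genes tested (16.1% with MI above). In MI replicates 1 and 3 alone, Ace rose by 1.46 on the log2 scale (SE 0.067, limma adjusted p = 6.88e-06), 1.13 above the median gene.

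Ace is known as a surface enzyme of endothelial cells. Its sham values varied little between mice, with a coefficient of variation of 4.74%, the smallest among the 6 members detected in every mouse. The 5 endothelial markers (Pecam1, Cdh5, Kdr, Emcn and Tie1) summed to 116 to 135 FPKM in the sham mice and to 141, 108 and 154 FPKM in MI replicates 1 to 3, which is 1.15, 0.879 and 1.25 times the sham mean. They had no common direction. In MI replicates 1 and 3, Pecam1, Emcn and Tie1 were above and Kdr below every sham mouse. The 5 macrophage markers summed to 58.6 to 75.1 FPKM and to 337, 70.5 and 278 FPKM, or 4.90, 1.03 and 4.04 times the sham mean, and the summed fibroblast markers were at 16.9, 1.71 and 12.7 times theirs. Most of the fibroblast sum in MI replicates 1 and 3 was Col1a1 and Col3a1, which rose more than the other fibroblast markers. In MI replicates 1 and 3 the change of Ace was thus larger than that of the endothelial sum and smaller than that of the macrophage and fibroblast sums. Single markers did not all keep this order. In MI replicate 3, Csf1r, Mrc1 and Pdgfra rose by a smaller factor than Ace, and the other macrophage and fibroblast markers by a larger one. In whole tissue, more cells of a type and more RNA per cell cannot be told apart, and the part of each cell type in the Ace values was not tested. The antisense gene Gm11651 shares 295 exon bases with Ace, and it was listed at 0 in 6 of 7 mice and at 0.0781 FPKM in sham replicate 2.

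Over the 7 mice, the genes whose log2 differences from their sham mean lay closest to those of Ace were Nid1, Gm6169 and Ndn, at root-mean-square distances of 0.043, 0.045 and 0.066. Nid1 encodes nidogen 1, a basement membrane protein. It reached at most 26.9 FPKM in the sham mice and was 66.9, 29.7 and 72.1 FPKM in MI replicates 1 to 3. These neighbours share the libraries with Ace, and the likeness is a description of 7 values only.

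The upstream sequence of Ace is printed because this member had the largest log2 difference of the 9 with all 7 mice. RefSeq lists 2 starts for Ace on GRCm38.p6, the second inside the gene. The 250 bases before the first start (chr11:105967698-105967947, plus strand) are given 5′ to 3′ with matches to the searched motifs in capitals.
Ace: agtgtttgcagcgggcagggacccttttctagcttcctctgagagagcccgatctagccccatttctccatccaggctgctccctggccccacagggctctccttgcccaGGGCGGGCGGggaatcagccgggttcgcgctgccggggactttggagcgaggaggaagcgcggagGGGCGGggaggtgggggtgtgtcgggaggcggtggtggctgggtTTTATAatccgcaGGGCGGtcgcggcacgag
Motifs were searched on both strands of each window. The TATA box, which places the start of many tissue-specific genes, was searched as TATAAA and so appears as its reverse in Ace and Enpep. The CCAAT box, bound by the factor NF-Y, was searched by the letters of its name. For the GC box, bound by factors of the Sp family, the letters were GGGCGG. The core of the hypoxia response element, bound by hypoxia-inducible factors, was searched as ACGTG. The Ace window held 1 TATA box, 31 bases before the start, and 4 GC boxes, of which the first 2 overlap, with no CCAAT box and no hypoxia response core. Among all 32851 windows of this length in the RefSeq table, 12.4% held a TATA box, 33.8% a CCAAT box, 32.7% a GC box and 16.6% a hypoxia response core. RefSeq windows were given for 8 of the 9 members, 11 windows in all, and none of them held a hypoxia response core. A TATA box was present in the windows of Agt, Ren1, Ace, Enpep and Agtr1b, and no motif was common to all. A match of letters is a description and not a known binding site.

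Enpep (chr3:129269175-129332720, minus strand) encodes glutamyl aminopeptidase, which turns angiotensin II into angiotensin III. It was 2.43, 2.08, 2.39 and 2.19 FPKM in sham replicates 1 to 4, and 4.42, 1.91 and 3.27 FPKM in MI replicates 1 to 3. MI replicates 1 and 3 were above every sham mouse and MI replicate 2 was below every one. The means were 2.27 ± 0.165 FPKM (SD, n = 4) and 3.20 ± 1.26 FPKM (SD, n = 3), on 265 to 339 fragments in the sham mice and 583, 262 and 467 in the MI mice. The log2 difference of 0.32 (SE 0.20, 95% interval -0.15 to 0.78, limma adjusted p = 0.239) was no larger than the spread between mice, and was 0.11 above the median gene. When MI replicate 2 was left out, Enpep rose by 0.56 (SE 0.11, adjusted p = 0.00265), with a ratio of means of 1.69, and by 0.23 relative to the median gene. The difference was 0.11 without MI replicate 1 (adjusted p = 0.676), 0.11 after median log-ratio scaling and 0.038 after quantile normalization, so its size rested on MI replicate 1 and on the scaling. Enpep is known from pericytes of small vessels. The 6 pericyte and smooth muscle markers summed to 204 to 222 FPKM in the sham mice and to 191, 209 and 192 FPKM in MI replicates 1 to 3, with no common direction among the 6. In MI replicates 1 and 3, Pdgfrb and Cspg4 were above and Kcnj8 and Abcc9 below every sham mouse. The part of pericytes in the Enpep values was not tested. The genes most like Enpep over the 7 mice were Etv6, Magoh and Il13ra1, at distances of 0.046, 0.047 and 0.055.

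The upstream window of Enpep (chr3:129332750-129332999, minus strand, GRCm38.p6) is shown as that of the other enzyme gene that rose without MI replicate 2. It held 1 TATA box, 52 bases before the start, and 1 CCAAT box, 77 bases before the start, both on the reverse strand, with no GC box.
Enpep: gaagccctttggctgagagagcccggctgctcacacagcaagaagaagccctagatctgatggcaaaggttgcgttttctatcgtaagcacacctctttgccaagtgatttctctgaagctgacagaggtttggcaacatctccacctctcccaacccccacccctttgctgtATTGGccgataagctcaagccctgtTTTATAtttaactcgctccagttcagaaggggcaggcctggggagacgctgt

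Mme (chr3:63241537-63386030, plus strand) encodes neprilysin, a membrane peptidase that makes angiotensin 1-7 from angiotensin I and also degrades natriuretic peptides. It was 0.774, 0.604, 0.652 and 0.889 FPKM in sham replicates 1 to 4 and 0.422, 0.636 and 0.412 FPKM in MI replicates 1 to 3. The lowest values were those of MI replicates 1 and 3, and MI replicate 2 was inside the sham range. Mme was below the filter, and in the fit without a filter its log2 difference was -0.22 (SE 0.10, limma adjusted p = 0.227), with an exact two-sided permutation p of 0.114. Mme fell by 0.28 without MI replicate 2 and without a filter (SE 0.084, adjusted p = 0.0393), or by 0.38 relative to the median gene of that fit, and the sham mean was 1.75 times that of MI replicates 1 and 3. In that fit 6 of the 9 members passed an adjusted p under 0.05, with Ace, Enpep and Agtr2 higher and Agtr1a, Mme and Mas1 lower. Of 30076 genes in the same fit, 42.2% passed (36.2% higher and 5.97% lower).

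Agtr1a (chr13:30336441-30382867, plus strand) encodes the type 1a angiotensin II receptor, the main type 1 receptor of the mouse heart and vessels. It was 3.05, 2.25, 2.73 and 3.24 FPKM in sham replicates 1 to 4, and 0.921, 7.24 and 1.06 FPKM in MI replicates 1 to 3. MI replicates 1 and 3 were below every sham mouse, and MI replicate 2 was above every one, at 2.57 times the sham mean. The fragments behind these values were 180 to 252 in the sham mice and 74, 604 and 92 in the MI mice, so that the 3 MI values differed by far more than counting error. The means were 2.82 ± 0.434 FPKM (SD, n = 4) and 3.07 ± 3.61 FPKM (SD, n = 3). The mean of the MI group described none of its mice. With all mice the log2 difference was -0.25 (SE 0.48, 95% interval -1.39 to 0.88, limma adjusted p = 0.692), while the mean FPKM of the MI mice was the higher of the 2. In MI replicates 1 and 3 alone, Agtr1a fell by 0.93 (SE 0.11, adjusted p = 0.000336), or by 1.26 relative to the median gene, and the sham mean was 2.85 times that of MI replicates 1 and 3.

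The high value of MI replicate 2 was not common among genes. In that mouse 49.4% of the genes tested lay within the range of the sham mice, and 104 genes (0.91%) were at 2 or more times the sham mean. The full pattern of Agtr1a, with MI replicate 2 above and MI replicates 1 and 3 below every sham mouse, was shared by 173 genes (1.51%). Agtr1a also had no near neighbour: the closest genes were mt-Rnr1, Uqcc1 and the unnamed gene ENSMUSG00000120513, at root-mean-square distances of 0.30, 0.31 and 0.32. The closest of them, mt-Rnr1, is the mitochondrial small ribosomal RNA. It was 2255 to 2593 FPKM in the sham mice and 1253, 3205 and 1127 FPKM in MI replicates 1 to 3, and so was also above the sham mice in MI replicate 2. In the heart, Agtr1a is known from pericytes, smooth muscle cells and fibroblasts. In MI replicate 2 the pericyte and smooth muscle markers stood at 0.989 times the sham mean and the fibroblast markers at 1.71 times. In MI replicates 1 and 3 the former were at 0.903 and 0.908 times the sham mean and the latter at 16.9 and 12.7 times. The collagen genes Col1a1 and Col3a1 made up most of the fibroblast sum in those mice. Pdgfra of the same list was 2.27 to 2.58 FPKM in the sham mice and 10.6, 3.15 and 7.04 FPKM in MI replicates 1 to 3. Within the pericyte and smooth muscle list, Pdgfrb was 10.6 to 12.6 FPKM in the sham mice and 24.2, 10.9 and 22.3 FPKM in MI replicates 1 to 3, while Abcc9 was 43.0 to 47.3 FPKM and then 17.7, 42.6 and 19.0 FPKM. Their part in the Agtr1a values was not tested.

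Agtr1b (chr3:20314473-20367177, minus strand) encodes the second type 1 receptor of rodents, known mainly from the adrenal gland and pituitary. It was listed at 0 in 6 of 7 mice, and at 0.0336 FPKM in MI replicate 3, under the 0.0592 FPKM that 3 fragments would give there at its annotated exon length of 2147 bases. The coding sequences of Agtr1a and Agtr1b were identical at 90.8% of 1080 bases, with a longest identical run of 66 bases. Fragments in such runs could be assigned to either gene, so the Agtr1b value is uncertain. Without MI replicate 2 and without a filter, its log2 difference was 0.024 (limma adjusted p = 0.317).

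Agtr2 (chrX:21484544-21489164, plus strand) encodes the type 2 receptor, abundant in fetal tissue and scarce in adult heart. It had 0 fragments in every sham mouse and in MI replicate 2, and 5 and 6 fragments (0.0649 and 0.0719 FPKM) in MI replicates 1 and 3. Those mice were above the 0.0391 FPKM that 3 fragments would give in a sham mouse. The exact two-sided permutation p was 0.286. Agtr2 was 0.095 higher on the log2 scale without MI replicate 2 and without a filter (SE 0.013, limma adjusted p = 0.00212), a value that rests on 11 fragments in all and is -0.0016 relative to the median gene of that fit.

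Mas1 (chr17:12841079-12868143, minus strand) encodes the receptor of angiotensin 1-7. It was 0.201, 0.191, 0.177 and 0.226 FPKM in sham replicates 1 to 4, and 0.0249, 0.215 and 0.0688 FPKM in MI replicates 1 to 3. MI replicate 2 was within the sham range, and the other MI mice were far below it. The sham mice held 23 to 25 fragments each, and the MI mice 3, 27 and 9. In the fit without a filter the log2 difference was -0.12 (SE 0.060, limma adjusted p = 0.232), with an exact two-sided permutation p of 0.229. Mas1 fell by 0.20 without MI replicate 2 and without a filter (SE 0.031, adjusted p = 0.00393), or by 0.29 relative to the median gene, and the sham mean in FPKM was 4.25 times that of MI replicates 1 and 3, a ratio that the pseudocount of 1 compresses on the log2 scale.

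The window before the start of Mas1 (chr17:12868144-12868393, minus strand, GRCm38.p6) is printed as that of a receptor gene that fell without MI replicate 2. It held 1 CCAAT box, 93 bases before the start, with no TATA box and no GC box.
Mas1: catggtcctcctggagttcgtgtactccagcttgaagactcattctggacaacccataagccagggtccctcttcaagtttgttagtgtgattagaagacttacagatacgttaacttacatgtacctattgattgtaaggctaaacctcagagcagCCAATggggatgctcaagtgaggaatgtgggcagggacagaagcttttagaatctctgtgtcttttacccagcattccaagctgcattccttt

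The difference between the enzyme genes Ace and Mme was then taken within each mouse, since it does not depend on scaling between mice except through the pseudocount. It compares the RNA of enzymes that act on angiotensin I, making angiotensin II (Ace) or angiotensin 1-7 (Mme). No peptide or enzyme activity was measured. Ace minus Mme was 2.98, 2.98, 3.06 and 2.85 in the sham mice and 4.64, 3.23 and 4.77 in MI replicates 1 to 3. The groups did not overlap, and the mean difference was 1.25 (exact two-sided permutation p = 0.0571, adjusted p = 0.114 over the 4 differences computed), or 1.74 without MI replicate 2 (exact permutation p = 0.133). Both p-values are the smallest that the numbers of mice allow and could not fall under 0.05. Of the mean difference, 1.03 came from the values of Ace already given. The same difference for the receptors, Agtr1a minus Agtr2, is not read as a comparison, because Agtr2 was at 0 in 5 of 7 mice and near 0 in the others. Its mean difference of -0.31 lay near the -0.25 of Agtr1a alone, and it depended on the pseudocount, at -0.99 with a pseudocount of 0.1 against -0.49 for Agtr1a alone.

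**Figure D3:**
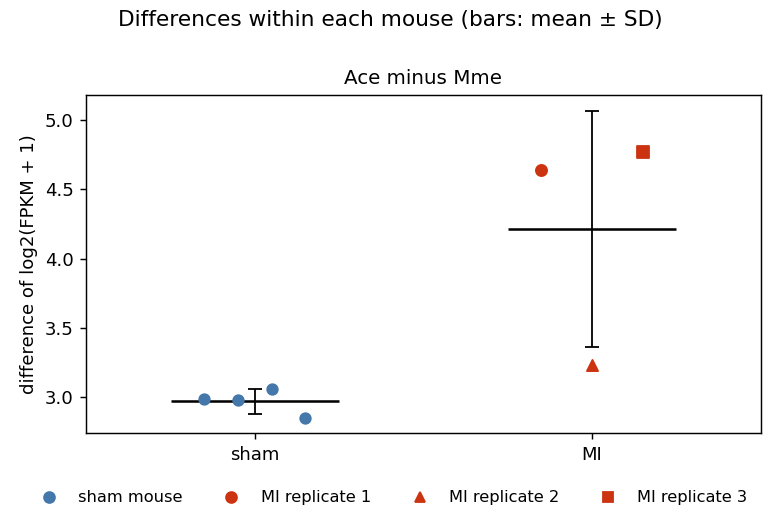
Difference of log2(FPKM + 1) between Ace and Mme within each mouse (y axis), with 1 point per mouse (blue circles, sham; red symbols, MI replicates 1 to 3) and the mean and SD of each group; the y axis does not start at 0. Ace minus Mme was higher in every MI mouse than in any sham mouse, by 1.25 on average.

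The other peptidases that act on angiotensin peptides were counted as a list of 16 genes, all in the table, of which 11 passed the filter. With all mice, 0 of the 11 passed the adjusted test, and Anpep, Ctsa and Ctsd were past the second criterion on the higher side (3 of 11, against 17.8% of all genes). The median log2 difference of the 11 was 0.37, or 0.17 above the median gene. When that mouse was left out, 8 of the 11 rose by the adjusted test and 0 fell, against 57% and 14.7% of all genes. With quantile normalization or median log-ratio scaling only Anpep remained past the second criterion, and the log2 differences of Lnpep, Nln, Prep and Thop1 turned negative.

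Anpep, aminopeptidase N, which turns angiotensin III into angiotensin IV, was 1.54 to 1.87 FPKM in the sham mice and 9.36, 2.45 and 9.26 FPKM in MI replicates 1 to 3, with no overlap. Its log2 difference was 1.42 (SE 0.37, limma adjusted p = 0.108), and 1.94 without MI replicate 2. Ctsa, the lysosomal carboxypeptidase cathepsin A, was at most 10.9 FPKM in the sham mice and then 22.7, 11.6 and 21.5 FPKM, again with no overlap. Prcp, a lysosomal carboxypeptidase that converts angiotensin II to angiotensin 1-7, was 2.49 to 2.81 FPKM in the sham mice and 8.66, 2.21 and 7.56 FPKM in MI replicates 1 to 3. Its MI replicate 2 was below every sham mouse, and the limma adjusted p was 0.129. Ctsd, the lysosomal protease cathepsin D, had the highest level of the list, at 203 to 212 FPKM in the sham mice and 398, 204 and 397 FPKM in MI replicates 1 to 3. Dpp3 and Rnpep, which trim small peptides, rose without MI replicate 2 by 0.56 and 0.57, at 1.73 and 1.68 times the sham mean.

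Mast cells store proteases that can make angiotensin II or trim angiotensin I without ACE. Cma1, a mast cell protease of the chymase family, was 0.370 to 0.797 FPKM in the sham mice and 2.43, 0.708 and 1.46 FPKM in MI replicates 1 to 3. Cpa3, carboxypeptidase A3, was 0.429 to 0.970 FPKM and then 1.36, 0.670 and 0.977 FPKM. Both were below the filter, and their action on angiotensin was not tested. Cma1 rose by 0.83 without MI replicate 2 and without a filter (limma adjusted p = 0.0119) and Cpa3 had an adjusted p of 0.0698. Mcpt4, which passed the filter, was 0.361 to 1.21 FPKM in the sham mice and 1.99, 1.32 and 1.26 FPKM in the MI mice (limma adjusted p = 0.167). All MI mice were above all sham mice, as for 16.1% of all genes tested, but MI replicate 3 only just so. Without MI replicate 2 the log2 difference of Mcpt4 was 0.45 (limma adjusted p = 0.109). The 5 mast cell markers, which include these 3 genes, summed to 2.75 to 4.56 FPKM in the sham mice and 8.27, 3.90 and 5.90 FPKM in the MI mice. Ctsg, the cathepsin G of neutrophils and mast cells, was listed at 0 in every sham mouse and at 0.260, 0 and 0.0300 FPKM in MI replicates 1 to 3. Klk1, tissue kallikrein, which is abundant in kidney, was 0.105 to 0.387 FPKM in the sham mice and 1.89, 0.185 and 0.355 FPKM in MI replicates 1 to 3, so its high value was in the mouse with the highest kidney markers. That link was not tested.

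Renin handling and receptor partners formed a list of 11 genes, of which Ren2 had no entry in the table, Mrgprd was at 0 in every mouse and 9 passed the filter. By the adjusted test 0 of 9 passed with all mice, against 0.0262% of all genes, and 4 (Atp6ap2, Gnaq, Arrb2 and Grk5) were past the second criterion on the higher side, against 17.8%, with a median log2 difference of 0.52 over the 9, or 0.31 above the median gene. With MI replicate 2 left out, 7 rose and 1, Rgs2, fell, against 57% and 14.7% of all genes. Atp6ap2, the prorenin receptor and a part of the vacuolar proton pump, was 6.64 to 7.19 FPKM in the sham mice and 19.8, 7.74 and 18.4 FPKM in MI replicates 1 to 3. The groups did not overlap, and the log2 difference was 0.96 (SE 0.29, limma adjusted p = 0.108), or 1.36 without MI replicate 2. Arrb2, an arrestin that binds active type 1 receptors, was 1.87 to 2.22 FPKM and then 8.34, 2.25 and 8.16 FPKM, and Grk5, a receptor kinase, was 3.89 to 4.59 FPKM and then 11.3, 4.68 and 10.5 FPKM. For both genes MI replicate 2 lay only just above the highest sham mouse.

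Gnaq, the G protein subunit that carries the type 1 receptor signal, was 4.80 to 5.41 FPKM in the sham mice and 10.1, 4.84 and 8.85 FPKM in MI replicates 1 to 3, and it was no longer past the second criterion with quantile normalization, with median log-ratio scaling or without the mitochondrial genes. Agtrap, which binds the type 1 receptor and takes it from the cell surface, was 11.3 to 12.2 FPKM and then 14.9, 11.5 and 13.8 FPKM. Its difference of 0.19 (limma adjusted p = 0.193) was below the median gene. Rgs2, which shortens Gq signals, was 6.32 to 7.21 FPKM in the sham mice and 5.71, 6.50 and 5.61 FPKM in MI replicates 1 to 3, and fell by 0.24 without MI replicate 2 (adjusted p = 0.0127).

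Of the 4 genes of the mineralocorticoid arm, through which aldosterone acts, 2 passed the filter. Nr3c2, the mineralocorticoid receptor, was 1.69, 1.77, 1.06 and 1.64 FPKM in sham replicates 1 to 4, and 0.388, 1.06 and 0.449 FPKM in MI replicates 1 to 3. All MI mice were below all sham mice, though MI replicate 2 was almost level with sham replicate 3. The log2 difference was -0.65 (SE 0.17, unadjusted p = 0.00634, limma adjusted p = 0.108), which is past the second criterion on the lower side, as were 4.8% of all genes. Nr3c2 fell by 0.83 without MI replicate 2 (adjusted p = 0.00110). Sgk1, a kinase induced by the receptor, was 9.18 ± 0.687 FPKM in the sham mice (SD, n = 4) and 7.01, 8.94 and 12.0 FPKM in the MI mice, and showed no common direction. Cyp11b2, aldosterone synthase, was at 0 in all 7 mice. Hsd11b2, which inactivates glucocorticoids at the receptor, was 0.0251 to 0.116 FPKM and then 0.674, 0.0720 and 0.391 FPKM.

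The kinin arm is linked to this system because ACE also degrades bradykinin, and 0 of its 4 genes passed the filter. Bdkrb2, the constitutive bradykinin receptor, was 0.158 to 0.264 FPKM in the sham mice and 0.920, 0.186 and 0.614 FPKM in MI replicates 1 to 3. It rose by 0.53 without MI replicate 2 and without a filter (limma adjusted p = 0.00372). Bdkrb1, the inducible receptor, was at 0 in the sham mice and at 0.156, 0.0125 and 0.0120 FPKM in the MI mice, where it rested on 12, 1 and 1 fragments. The kininogen genes Kng1 and Kng2 were at or under 0.0401 FPKM in the sham mice and reached 0.0801 and 0.276 FPKM in MI replicate 1. The plot of changes by mouse gives all genes of the lists that passed the filter together with the members.

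**Figure D4:**
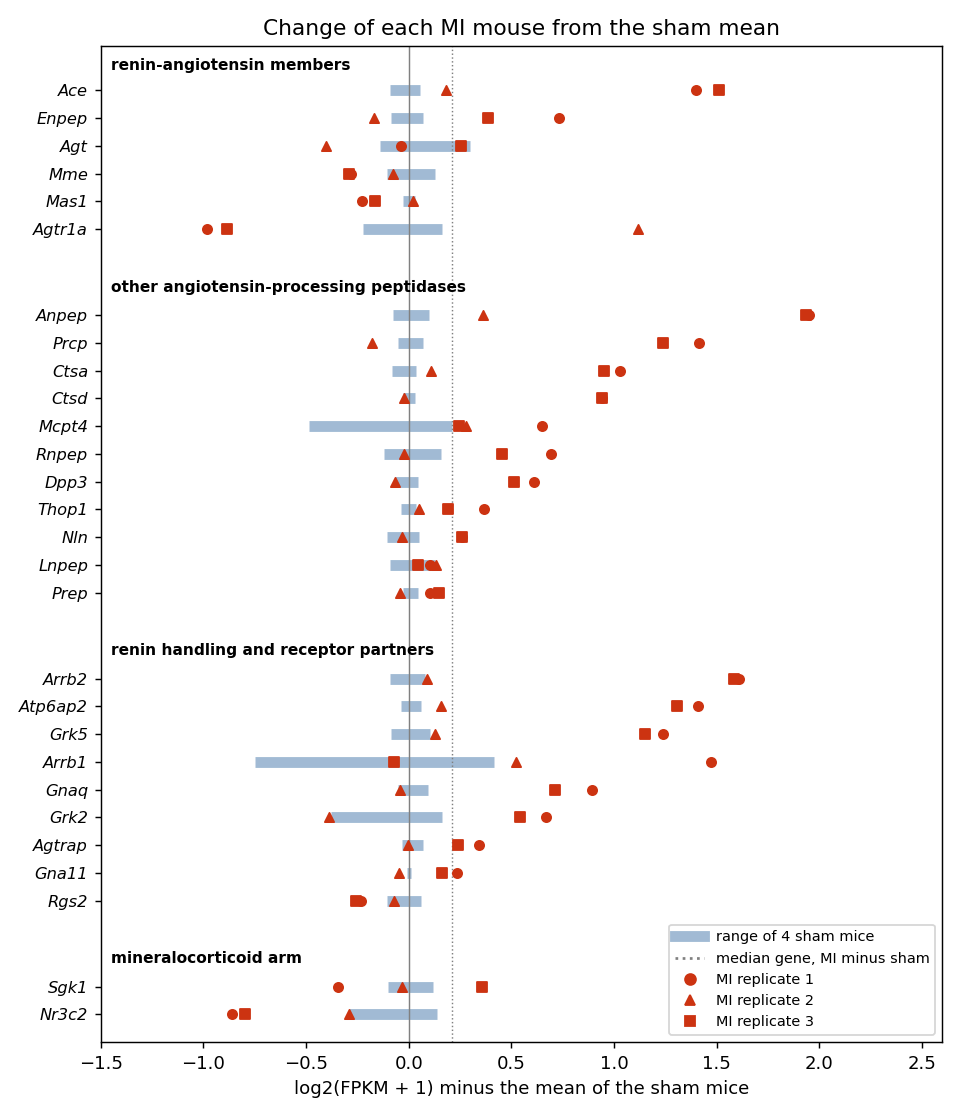
Change of each MI mouse from the sham mean (x axis, log2(FPKM + 1)) for the 6 members with fragments in every mouse and for the genes of the pathway lists that passed the filter, with 1 red symbol per MI mouse, the range of the 4 sham mice as a blue band and the median gene (0.21) as a dotted line. MI replicate 2 (triangles) lay in or near the sham band for most genes, and among the members Agtr1a was farthest from it there, at 1.12 in MI replicate 2, against -0.98 and -0.88 in MI replicates 1 and 3.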

How the data were processed

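Total RNA from myocardium of 7 mice was sequenced (4 sham, 3 MI, grouped by the treatment label). The submitters' processing notes name CASAVA 1.8, HISAT2, SAMtools 1.3.1, edgeR and the build mm10, without their roles; the counting program, its strand setting and the annotation are not given in the sources used here. The authors deposited FPKM values for 56980 genes. Values of 30503 of the 30504 genes above 0 were whole multiples (within 0.05) of what 1 fragment is worth, which gave the depths and fragment numbers; the limit of 3 fragments that a count of 0 allows covers counting error only. Symbols and positions came from GENCODE M21 (GRCm38) for 52125 identifiers (91.5%), and upstream sequences from RefSeq (GRCm38.p6).

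Genes with 1 FPKM or more in 3 or more mice (11431) were tested as log2(FPKM + 1) with limma 3.58.1 (R 4.3.3, eBayes with trend, no covariates, Benjamini-Hochberg adjustment at 0.05), checked on simulated data. Single values were tested by exact permutation over 35 splits, or 15 without MI replicate 2 (SciPy 1.17.1). The members and gene lists were chosen with earlier results of these data known. The genes named are the 9 members, the genes of 4 pathway lists, marker genes, and the 3 genes most like each member that passed the filter. Alternatives tried were a filter on the mean or none, TPM, a pseudocount of 0.1, quantile normalization, median log-ratio scaling, mitochondrial genes left out, no trend, sample weights, a replicate block, voom on the recovered fragments and each mouse left out. Leaving out MI replicate 2 together with the filter was added after seeing the data. Sham and MI mice with the same replicate number did not deviate together (correlations of 0.0739, -0.0163 and -0.0802), so the numbers were not taken as pairs. Of the 4 differences within a mouse, 2 are not reported here.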

Additional observations from a re-analysis of the deposited data

Results flagged for a closer look

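A value far from the others of its group was looked for in the 4 sham mice, in 40 sets of values (36 genes of the members and lists and the 4 within-mouse differences), where chance alone gives about 1 in 20, or 2 of 40. The gap to the nearest mouse, divided by the range, was past Dixon's limit for 4 genes. It was 0.838 for Cpa3, with sham replicate 1 at 0.970 FPKM against 0.429 to 0.517 FPKM in the others. It was 0.840 for Agtrap, with sham replicate 1 at 12.2 FPKM against 11.3 to 11.4 FPKM. For Grk2, sham replicate 2 was at 6.15 FPKM and the others at 8.86 to 9.41 FPKM, with a gap of 0.830 of the range, and MI replicate 2 was as low, at 6.12 FPKM. For Kng1 the gap was the whole range, a value of 1, since sham replicate 1 held 2 fragments and the others 0. None of the 9 members was among the 4 genes.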

How the results depend on the processing

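With all 7 mice, 2 genes were higher and 1 lower in MI at an adjusted p under 0.05. The genes higher and lower numbered 20 and 1 when no filter was applied, 5 and 1 at a pseudocount of 0.1, 0 and 0 when filtered on the mean, 2 and 0 as TPM, 10 and 5 after median log-ratio scaling and also after quantile normalization, 10 and 4 without mitochondrial genes, 1 and 1 with voom, and 7636 and 2316 with sample weights, which gave MI replicate 3 a weight of 436.7 and the other MI mice under 0.1. Leaving out 1 mouse at a time gave 0 to 6512 higher and 0 to 1683 lower, the highest of both without MI replicate 2. Members past the adjusted test numbered 0 to 3 and past the second criterion 1 to 3 when 1 mouse was left out, 4 and 2 with sample weights, and 6 past the adjusted test without MI replicate 2 and without a filter. In all other alternatives these counts stayed at 0 and 1. The replicate block gave 0 genes higher and 0 lower (2332 at an unadjusted p under 0.05) and changed no member's call; 1 of 3 MI mice correlated best with the sham mouse of its own number. The log2 difference of Agt turned positive as TPM (0.10), with sample weights (0.27, adjusted p = 0.00459 by limma), with the replicate block (0.039), without sham replicate 4 (0.039) and without MI replicate 2 (0.11, also 0.11 without a filter), and ranged from -0.22 to 0.11 over mice left out. That of Agtr1a turned positive without MI replicate 1 (0.12) or MI replicate 3 (0.067), and ranged from -0.93 to 0.12. Agtr1a minus Agtr2 was -0.99 at a pseudocount of 0.1 and ranged from -1.03 to 0.066 over mice left out, and was 0.066 without MI replicate 1 and 0.021 without MI replicate 3. Ace minus Mme kept its direction in all 12 alternatives tried for it. The cause of these shifts was not tested. Ren1, Agtr1b and Agtr2 rest on at most 6 fragments a mouse, which limits any statement about them.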
